A study of Mus musculus with 9 samples.

Results

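The integrated stress response is the programme by which a cell that lacks amino acids, is loaded with unfolded protein or is otherwise strained slows general translation and switches on a set of repair genes. The expression of 10 of its regulators, Atf4, Atf5, Atf3, Ddit3, Cebpb, Cebpg, Trib3, Chac1, Sesn2 and Ddit4, was followed in neurospheres of adult olfactory bulb stem cells (aOBSCs) that received their growth factors less and less often. The genes were taken by name, for their role in this response, with earlier results of these data known. They are 10 of 18193 genes on the Affymetrix mouse array that have a probe set with 1 gene symbol, and 18 of 45037 probe sets tested carry one of these symbols. Both factors, FGF-2 and EGF, were given at 20 ng/ml, at an interval of 1 day in Ctr, 2 days in C2 and 4 days in C4. The medium was not changed during growth, so the number of additions, and the factor supplied in all, fell with longer intervals. The paper also reports fewer cells in C2 and C4 cultures than in Ctr. The part of cell number in the differences described here was not tested. Each condition has 3 arrays. Spheres were grown for 7 days throughout, so that the last addition came 1 day before collection in C2 and 3 days before it in C4. Every culture had been fed daily until passage 3, and C2 and C4 cultures were kept on their schedule for 2 passages before the assay. Cells came from adult mice of the CD1 or C57Bl/6 strain, 7 or 15 months old, and neither strain nor age is given per array. As a model they are limited in that a passaged sphere is a mixed culture and not a sorted stem cell.

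Levels are GCRMA values on the log2 scale, on which a difference of 1 is a doubling, and they were tested with limma: a gene was called where its p, adjusted over all probe sets tested by the Benjamini-Hochberg method, was under 0.05. Where a gene has several probe sets, the one with the highest mean stands for it. Over all probe sets, 2833 were called in C4 and 767 in C2 against Ctr, and 2363 in C4 against C2. The lowest value on the arrays was 2.27, about 35% of probe sets stood there, and a mean under 4 was treated as close to that floor. The cells had the markers of their label: Sox2, Fabp7 and Olig2 were among the 11 neural stem and progenitor cell markers measured, all with a mean over 4, of which none was called in C2 and 4 were called higher and 1 lower in C4. Of the markers of other cells, 1 of 7 astrocyte genes and 2 of 8 oligodendrocyte lineage genes were called lower in C2, and 4 genes of each list higher in C4. The summed linear level of the astrocyte list ranged over 16890 to 17220 in Ctr, 16030 to 16760 in C2 and 19540 to 20330 in C4. That of the oligodendrocyte list ranged over 1989 to 2169 in Ctr, 1672 to 1739 in C2 and 2878 to 3127 in C4, so that both sums were lowest in C2 and highest in C4, while the defining markers Gfap, Mbp, Mog and Mag stayed close to the floor. Of 10 neuroblast and neuron genes, 7 with a mean of 4 or less, 1 was called lower in C2 and 1 higher and 1 lower in C4. Of 6 olfactory ensheathing cell genes, some shared with the lists above, 2 were called higher in C4 and none in C2. The summed level of these 6 ranged over 22600 to 23240 in Ctr, 24860 to 25160 in C2 and 28300 to 29700 in C4. The part of the cells of any of these lists in the differences described here was not tested, and in such bulk samples fewer cells of a type cannot be told apart from less RNA per cell.

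As background, the response begins with kinases that phosphorylate the translation factor eIF2, each sensing its own stress: GCN2 (Eif2ak4) uncharged tRNA, PERK (Eif2ak3) unfolded protein in the endoplasmic reticulum, PKR (Eif2ak2) double-stranded RNA and HRI (Eif2ak1) heme shortage and mitochondrial stress. Phosphorylated eIF2 lowers initiation at most messages but lets the ribosome reach the coding frame of ATF4, a bZIP transcription factor that, paired with C/EBP proteins, turns on genes for amino acid supply, tRNA charging and further transcription factors. ATF4 and ATF5 are controlled in good part at translation, so the level of their messages is not the level of their proteins. In neural progenitors, ATF5 is known as a factor that keeps cells proliferating and delays differentiation.

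ATF4 binds with its C/EBP partners at a composite element, the C/EBP-ATF response element, written TGATGNAA on one strand and TTNCATCA on the other. The 300 bases around the annotated start of each gene (250 before it and 50 after it, RefSeq, GRCm38.p6) were searched for it on both strands, since the members' values bear on whether ATF4 targets moved together. A match was found for 3 of the 10 genes, Atf3, Chac1 and Trib3, and in 3.97% of 32851 such windows. The palindrome TGACGTCA, the CREB/ATF element, was in none of the members' windows and in 1.79% of all. The matches, on the strand of the gene and with the matching letters in capitals, are shown because these are the members whose window holds the element through which ATF4 acts.
Atf3, chr1:191183396-191183483, minus strand: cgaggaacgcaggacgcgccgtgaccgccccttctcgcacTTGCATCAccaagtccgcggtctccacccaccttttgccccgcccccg
Chac1, chr2:119351009-119351096, plus strand: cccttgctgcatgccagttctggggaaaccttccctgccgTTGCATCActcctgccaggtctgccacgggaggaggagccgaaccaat
Trib3, chr2:152344028-152344057, minus strand: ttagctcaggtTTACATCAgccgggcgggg
The match begins 110 bases before the start in Atf3 and 193 bases before it in Chac1, and with base 15 after the start in Trib3. A match is a description of the letters and not a bound site, and a window without one says nothing of ATF4 at that gene.

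Calls ran mostly upwards at the 2-day interval and downwards at the 4-day interval. With addition every 2 days, 7 of the 10 genes rose against Ctr, Ddit4 fell, and Trib3 and Cebpb did not pass the test; among all genes 1.67% were called higher and 0.846% lower in this comparison. With addition every 4 days, none rose and 6 of 10 fell (Atf5, Ddit3, Cebpg, Trib3, Ddit4 and Chac1), where 5.65% of all genes were called higher and 3.55% lower. In C4 against C2, 9 of 10 were lower, with Cebpb the exception, against 3.49% of all genes. A rise in C2 together with a fall in C4, against the same Ctr arrays, was called for 4 members (Atf5, Ddit3, Cebpg and Chac1) and for 0.319% of all genes. All 10 members belong to the 9347 genes with a mean over 4, and of these 3.21% were called higher in C2, 6.78% lower in C4, 6.67% lower in C4 against C2, and 0.621% both higher in C2 and lower in C4. The arrays of C2 and Ctr did not overlap for 9 members, 8 higher and 1 lower (10.4% and 6.35% of all genes), and those of C4 and Ctr for 9, all lower (8.64%). In C4 against C2 no member overlapped (9.53% of all genes lower), and 7 members had every C2 array above and every C4 array below every Ctr array, as 1.2% of all genes did. The median difference of the members was 0.66 in C2 and −0.55 in C4 from Ctr, beside medians of 0.02 in C2 and 0.05 in C4 over the genes with a mean over 4. Both comparisons rest on the same 3 Ctr arrays, so that a chance shift of Ctr would move both differences the same way. The comparison of C4 with C2 uses those arrays only for the estimate of the spread. With a variance prior that is robust to unusual genes, 2 members, Ddit3 and Cebpg, were called higher in C2, and none lower.

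**Figure D1:**
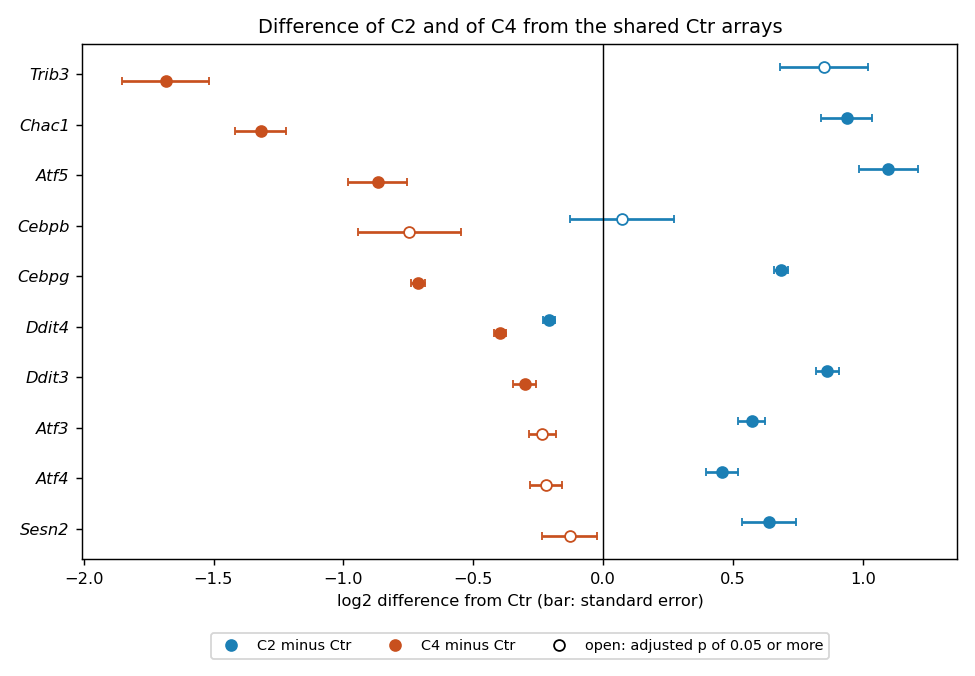
Difference of C2 and of C4 from Ctr in mean log2 level (horizontal axis) for the 10 genes (vertical axis, ordered by the difference in C4), with bars of 1 standard error from limma, 3 arrays per condition, and open circles where the adjusted p was 0.05 or more. Most genes lie right of 0 in C2 and all lie left of 0 in C4; Ddit4 lies left of 0 in both.

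Atf4 had levels of 10.90, 10.75 and 10.86 on the Ctr arrays, 11.25, 11.24 and 11.38 on the C2 arrays, and 10.71, 10.59 and 10.55 on the C4 arrays. The 3 conditions did not overlap. Atf4 encodes the factor on which the programme turns. Its level was 0.46 higher in C2 than in Ctr (adjusted p = 0.0243 by limma), while the difference of −0.22 in C4 did not pass the test (adjusted p = 0.117). The call in C2 was lost when any 1 array of Ctr or C2 was left out (adjusted p of 0.0559 to 0.0748). C4 was lower than C2 by 0.68 (limma, adjusted p = 0.00194).

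Atf5 is a close relative of Atf4. Its level was 7.41 on each of the Ctr arrays, 8.56, 8.44 and 8.51 on the C2 arrays, and 6.40, 6.39 and 6.82 on the C4 arrays. Every C2 array thus stood above, and every C4 array below, every Ctr array. Atf5 was 2.14-fold higher in C2 than in Ctr (difference 1.10, adjusted p = 0.0106 by limma) and lower in C4 by 0.87 (adjusted p = 0.0072), so that C4 was 3.9-fold below C2 (adjusted p = 2.93e-04). Its call in C2 was lost with the robust prior (adjusted p = 0.0663). The equal Ctr values, within 0.001, are shared by Trib3 and by 4.18% of the probe sets with a mean over 4 in Ctr. The SD of these genes in Ctr is therefore 0, and limma's test takes their spread from all 9 arrays.

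Atf3 encodes a repressor of the same family that many stresses induce. It stood at 5.37, 5.37 and 5.32 in Ctr, 5.93, 5.98 and 5.85 in C2, and 5.22, 5.04 and 5.09 in C4, again with no overlap between conditions. The rise in C2 was 0.57 (limma, adjusted p = 0.00812), and the difference of −0.23 in C4 missed the threshold (adjusted p = 0.0582), which it passed without C4 replicate 1 (adjusted p = 0.0246). With probe sets of low signal left out, which lowers the number of tests, Atf3, Atf4 and Cebpb were called as well and 9 of the 10 members were lower in C4.

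Ddit3 encodes CHOP, the factor linked to cell death when the response is prolonged. Levels of 9.07, 8.96 and 9.10 in Ctr, 9.85, 9.92 and 9.94 in C2, and 8.73, 8.80 and 8.70 in C4 kept the conditions apart on every array. Ddit3 was 1.82-fold higher in C2 (difference 0.86, adjusted p = 0.00156 by limma) and lower by 0.30 in C4 (adjusted p = 0.0112) than in Ctr. The call in C4 was lost with the robust prior (adjusted p = 0.0689) and in the mean of both Ddit3 probe sets (−0.08, adjusted p = 0.568). Between the longer intervals, C4 was 2.24-fold lower than C2 (limma, adjusted p = 5.84e-05).

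**Figure D2:**
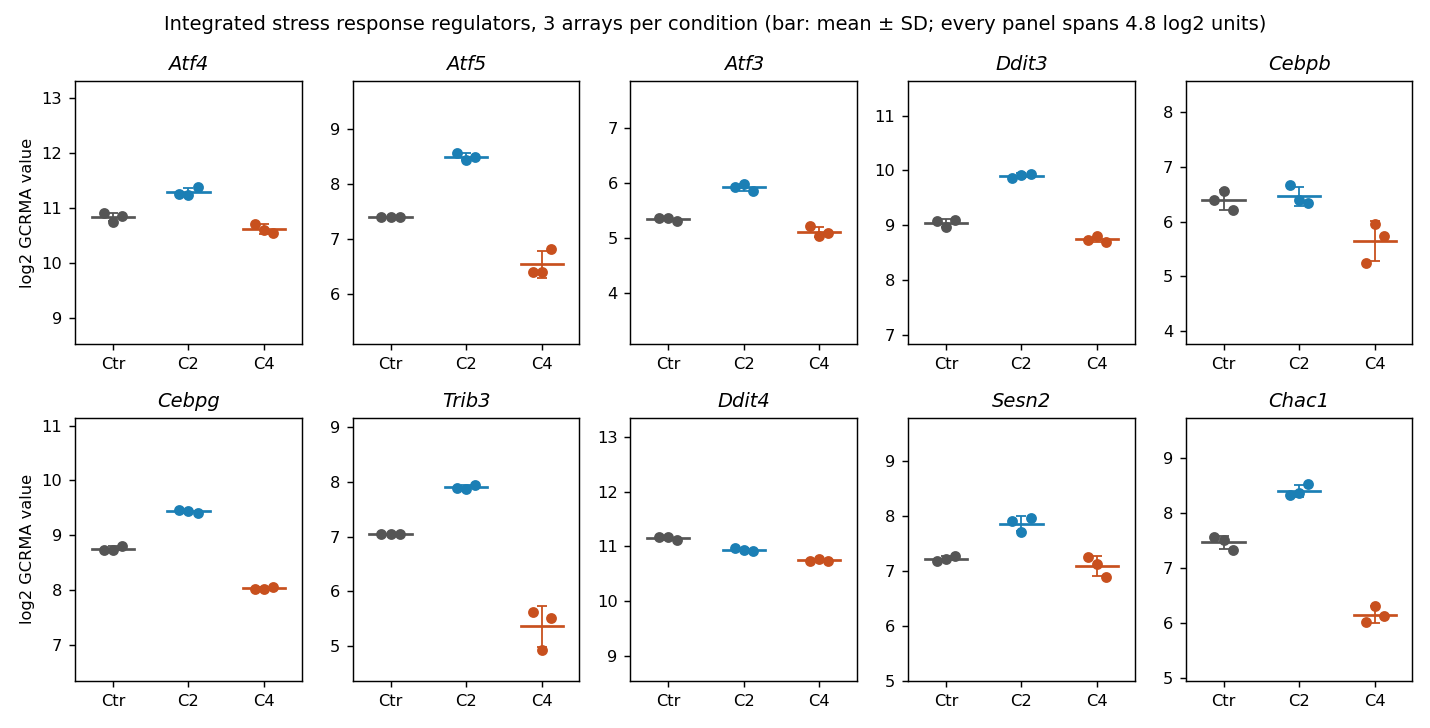
Log2 GCRMA value (vertical axis; every panel spans the same number of log2 units, at its own height) of the 10 genes in Ctr, C2 and C4 (horizontal axis); points are single arrays, and bars are the mean ± SD of the 3 arrays. For Atf5, Ddit3, Cebpg and Chac1 all C2 arrays lie above and all C4 arrays below the Ctr arrays, and Ddit4 steps down at each interval.

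Of the C/EBP partners, Cebpg, whose product forms heterodimers with ATF4, had levels of 8.73, 8.73 and 8.81 in Ctr, 9.46, 9.44 and 9.41 in C2, and 8.03, 8.03 and 8.06 in C4, with wide gaps between the conditions. The differences from Ctr were nearly equal in size and opposite in sign, 0.68 in C2 (adjusted p = 5.59e-04) and −0.71 in C4 (adjusted p = 1.02e-04, both by limma), and C4 was 2.63-fold lower than C2 (adjusted p = 5.4e-06). Cebpb, an inflammation- and differentiation-related member of the family, was more variable: 6.39, 6.57 and 6.21 in Ctr, 6.67, 6.39 and 6.33 in C2, and 5.24, 5.95 and 5.74 in C4. C2 and Ctr overlapped and differed by 0.07, with a 95% interval of −0.40 to 0.55. All C4 arrays lay below all others, yet the difference of −0.75 from Ctr did not pass the test (limma, adjusted p = 0.0967), nor did that of −0.82 from C2 (adjusted p = 0.0811).

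The 2 largest decreases in C4 belonged to effector genes. Trib3 encodes a pseudokinase that binds ATF4 and CHOP and dampens the response. It stood at 7.05 on each Ctr array, 7.89, 7.86 and 7.94 in C2, and 5.63, 4.94 and 5.52 in C4, with an SD of 0.37 between the C4 arrays. Trib3 was 3.21-fold lower in C4 than in Ctr (difference −1.68, SE 0.168, adjusted p = 0.00259 by limma). In C2 every array was above Ctr, by 0.85 on average, but the call was missed (adjusted p = 0.0752) and was made when the C4 array of replicate 2 was left out (adjusted p = 0.00333). Between C4 and C2 the difference reached 5.79-fold, C4 being lower (limma, adjusted p = 5.19e-04).

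Chac1 encodes an enzyme that breaks down glutathione. Its levels were 7.56, 7.51 and 7.34 in Ctr, 8.33, 8.36 and 8.53 in C2, and 6.01, 6.31 and 6.13 in C4. No array of one condition reached into another. Chac1 was 1.92-fold higher in C2 (adjusted p = 0.0112) and 2.5-fold lower in C4 (difference −1.32, SE 0.0991, adjusted p = 9.04e-04) than in Ctr by limma, and 4.78-fold lower in C4 than in C2 (adjusted p = 1.04e-04). The call in C2 was lost with the robust prior (adjusted p = 0.0717). Of the 10 genes, Trib3 and Chac1 were those that also met a difference of at least 1 with an adjusted p under 0.01 in C4, which 0.275% of genes did with a lower level.

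Sesn2 and Ddit4 both restrain the growth kinase mTORC1, Sesn2 as a leucine-sensing protein and Ddit4 (REDD1) through the TSC complex. Sesn2 had 7.19, 7.21 and 7.28 in Ctr, 7.91, 7.72 and 7.97 in C2, and 7.26, 7.14 and 6.90 in C4. It rose in C2 by 0.64 (limma, adjusted p = 0.0429), a call that leaving out any 1 array of Ctr or C2 removed (adjusted p of 0.0666 to 0.14), as did leaving out C4 replicate 2 (adjusted p = 0.081). The C4 and Ctr arrays overlapped, with a difference of −0.13 and a 95% interval of −0.38 to 0.12. Ddit4 had 11.17, 11.17 and 11.11 in Ctr, 10.97, 10.94 and 10.91 in C2, and 10.74, 10.78 and 10.74 in C4. It was the one member that fell at both intervals, by 0.21 in C2 (adjusted p = 0.0126) and by 0.40 in C4 (adjusted p = 3.62e-04), and C4 was also below C2 by 0.19 (adjusted p = 0.00624, all by limma). Without Ctr replicate 2 or C2 replicate 2, the C2 value just missed the threshold (adjusted p = 0.0506 and 0.0515).

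Ddit4 is also a target of hypoxia, glucocorticoids, FOXO factors and p53, so genes of those pathways were set beside it. Of 12 hypoxia targets, 6 fell in C2 and 8 in C4 and none rose, with medians of −0.46 and −0.55. Slc2a1, the glucose transporter GLUT1, was lower by 0.58 in C2 (adjusted p = 0.00359) and by 0.59 in C4 (adjusted p = 6.67e-04), and Bnip3, a mitophagy receptor, by 0.45 in C2 (adjusted p = 0.0023) and 0.40 in C4 (adjusted p = 7.5e-04, limma). The glucocorticoid and FOXO list, of 16 genes, had 2 lower in C2 (Ccng2 and Txnip) and 3 lower and 1 higher in C4. The gene that was higher was Sesn3, which is counted again among the family relatives below. Of its glucocorticoid targets, Sgk1, picked after its values were seen, differed by −0.24 in C2 (adjusted p = 0.106) and by 0.02 in C4 (adjusted p = 1, limma). It does not stand for the other glucocorticoid targets of the list. Of 14 p53 targets, 1 rose and 1 fell in C2 and 1 rose and 3 fell in C4. The p53 target that rose in C2 was the member Sesn2 itself. Whether any of these pathways had a part in the lower Ddit4 was not tested.

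Several members had more than 1 probe set. Of all 18 probe sets, 8 were called higher and 1 lower in C2 (1.13% and 0.577% of all probe sets), none higher and 8 lower in C4 (2.51%), and 13 lower in C4 against C2 (2.39%). The second Trib3 probe set is of a kind whose probes may also bind other transcripts. It stood at 6.99, 7.08 and 6.99 in Ctr, 7.96, 7.84 and 8.13 in C2, and 4.59, 5.26 and 5.37 in C4. Its difference of −1.94 in C4 was called (limma, adjusted p = 0.00308), and that of 0.96 in C2 was not (adjusted p = 0.0907). The second Sesn2 probe set likewise rose in C2, by 0.74 (adjusted p = 0.0432), and the second Cebpg probe set differed by 0.77 in C2 and −0.53 in C4 without a call (adjusted p = 0.0759 and 0.123).

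The probe sets of Atf4, and those of Ddit3, did not run alongside each other. The second Atf4 probe set, of the same kind as the second of Trib3, read 9.95, 10.27 and 9.98 in Ctr, 10.25, 9.91 and 9.76 in C2, and 9.07, 8.98 and 9.14 in C4. It fell by 1.00 in C4 (limma, adjusted p = 0.00959) and did not differ detectably in C2 (−0.09, adjusted p = 1), so that one Atf4 probe set was called in C2 alone and the other in C4 alone against Ctr. Averaged over its probe sets, Atf4 had a difference of 0.04 in C2 (adjusted p = 0.876) and of −0.48 in C4 (adjusted p = 0.00135). The remaining Atf4 probe set was close to the floor on every array. The second Ddit3 probe set, at a mean near 5.4, differed by 0.04 in C2 and 0.15 in C4 with no call. Those left for Cebpb (mean 3.999, close to the floor) and Cebpg (mean 4.14, little above it) were not called either.

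**Figure D3:**
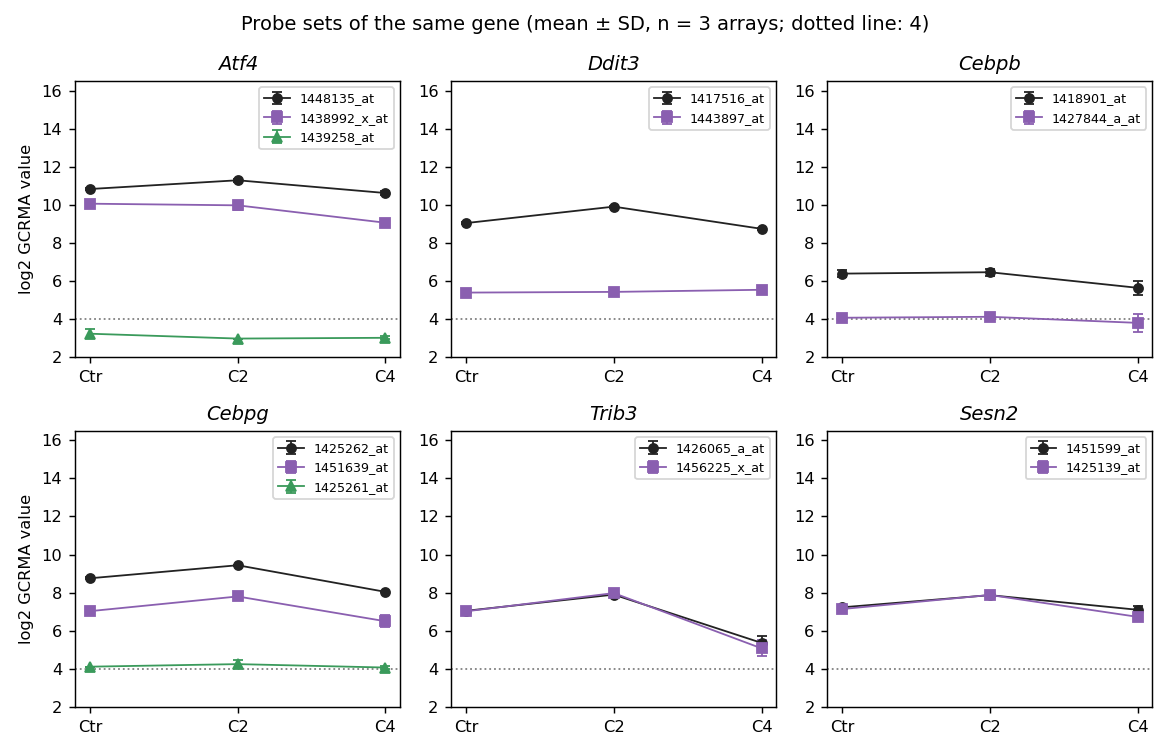
Log2 GCRMA value (vertical axis) in Ctr, C2 and C4 (horizontal axis) of each probe set of the members that have more than 1, a panel per gene; points are means with bars of 1 SD over 3 arrays, and the dotted line marks 4. The probe sets of Trib3 and Sesn2 run alongside each other, whereas the second Atf4 probe set is low in C4 and near its Ctr level in C2. The second Ddit3 probe set stays near its Ctr level in both.

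Upstream of these genes, few messages of the eIF2 machinery were called. Among 12 genes for eIF2 kinases and for the phosphatase that reverses them, none rose, and Ppp1cc, a catalytic subunit, was the single call in either comparison, lower by 0.12 in C2 (adjusted p = 0.00746) and by 0.06 in C4 (adjusted p = 0.0288, limma). Eif2ak4, encoding GCN2, differed by −0.45 in C4 without passing the test (adjusted p = 0.0626). Ppp1r15a, the stress-induced phosphatase subunit GADD34 and an ATF4 target itself, differed by 0.38 in C2 (adjusted p = 0.106) and by −0.02 in C4 (adjusted p = 1). Of 7 eIF2 and eIF2B subunits measured, Eif2s2 alone was called, higher by 0.34 in C2 (adjusted p = 0.0142) and lower by 0.18 in C4 (adjusted p = 0.046). The activity of the kinases depends on phosphorylation, which the arrays do not measure.

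Relatives of the regulators were set beside them. Of 17 paralogs and family members measured, 1 rose in C2 and 1 rose and 3 fell in C4. Jdp2, a repressor closest to Atf3, had the pattern of the members, higher by 0.50 in C2 (adjusted p = 0.00247) and lower by 0.42 in C4 (adjusted p = 9.55e-04). Cebpd fell in C4 by 0.53 (adjusted p = 0.00376) and Crem by 0.63 (adjusted p = 0.0135), and Sesn3, a FOXO target, rose there by 0.59 (adjusted p = 0.00476, limma). Apart from Sesn3, the relatives of the 4 effectors measured (Trib1, Trib2, Sesn1, Ddit4l and Chac2) were called in neither comparison. The largest of their differences were those of Sesn1, −0.69 in C2 (limma, adjusted p = 0.117) and −0.61 in C4 (adjusted p = 0.0903). Among 11 bZIP proteins that can pair with ATF4, Nfe2l2, the antioxidant regulator NRF2, fell in C4 by 0.48 (adjusted p = 0.00248) and Fos rose by 0.55 (adjusted p = 2.34e-04), with no call in C2.

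Target genes of ATF4 that supply amino acids were counted next. Of 15 genes of amino acid synthesis and 1-carbon metabolism, 9 rose and none fell in C2 and 11 fell and 1 rose in C4, with medians of 0.47 in C2 and −0.79 in C4, and 7 did both. Asns, asparagine synthetase, was higher by 0.61 in C2 (adjusted p = 0.00218) and lower by 0.86 in C4 (adjusted p = 1.43e-04), and Cth, which makes cysteine, had differences of 1.58 in C2 (adjusted p = 0.0132) and −1.30 in C4 (adjusted p = 0.00851). Gpt2, an alanine transaminase, was the gene that rose in C4, by 0.43 (limma, adjusted p = 0.0113).

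The aminoacyl-tRNA synthetases of the cytoplasm, which load tRNAs, gave 12 higher and 1 lower of 18 in C2 and none higher and 11 lower in C4, with medians of 0.34 in C2 and −0.39 in C4. Aars1 had differences of 0.57 in C2 (adjusted p = 0.00156) and −0.40 in C4 (adjusted p = 8.85e-04). Qars1 was the exception, lower by 0.51 in C2 (adjusted p = 0.0368) and by 0.57 in C4 (adjusted p = 0.00883, limma). Of the amino acid transporters, 4 of 12 were higher in C2, and 4 were lower and 1 higher in C4. Among the 12, 4 had a mean of 4 or less, close to the floor. Slc3a2, the heavy chain shared by several exchangers, was higher by 0.61 in C2 (adjusted p = 5.59e-04) and lower by 0.66 in C4 (adjusted p = 8.34e-05), and Slc7a5, its leucine-carrying partner, had 0.79 (adjusted p = 0.00944) and −1.09 (adjusted p = 7.72e-04) at those intervals. Slc38a2, a glutamine carrier, fell in C4 by 0.76 (adjusted p = 3.63e-04) and had a difference of −0.09 in C2 (adjusted p = 0.653). The glycine transporter Slc6a9 rose in both, by 0.40 in C2 (adjusted p = 0.0374) and 0.85 in C4 (adjusted p = 8.75e-04).

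Other targets of ATF4 and CHOP, 23 genes of which 4 had a mean of 4 or less, gave 5 higher and 2 lower in C2 and none higher and 10 lower in C4. The list includes Jdp2 and Ppp1r15a, and it shares Vegfa, Adm and Ndrg1 with the hypoxia targets above, so these genes are counted in both. Nupr1, a small stress-induced chromatin protein, was higher by 1.01 in C2 (adjusted p = 0.00156) and lower by 1.11 in C4 (adjusted p = 2.09e-04), and Eif4ebp1, the translation repressor 4E-BP1, was higher by 0.50 (adjusted p = 0.00614) and lower by 0.67 (adjusted p = 4.24e-04) at those intervals. Ero1a, an oxidase of the endoplasmic reticulum that is also a hypoxia target, fell at both, by 0.45 in C2 (adjusted p = 0.00971) and by 0.91 in C4 (adjusted p = 2.04e-04, limma). The arms of the unfolded protein response that run through ATF6 and XBP1 were set against this. Of 19 genes of these arms, none was called higher and Xbp1 was called lower in C2 (by 0.28, adjusted p = 0.0451). In C4, Manf and Sec61b were called higher and Herpud1 lower. Atf6, 1 of the 19, stood 0.81 above Ctr in C2 without overlap of the arrays, and missed the call (limma, adjusted p = 0.0692). The medians were −0.05 in C2 and 0.06 in C4, and Hspa5, the chaperone BiP, differed by −0.07 in C2 (adjusted p = 0.877) and 0.19 in C4 (adjusted p = 0.243).

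**Figure D4:**
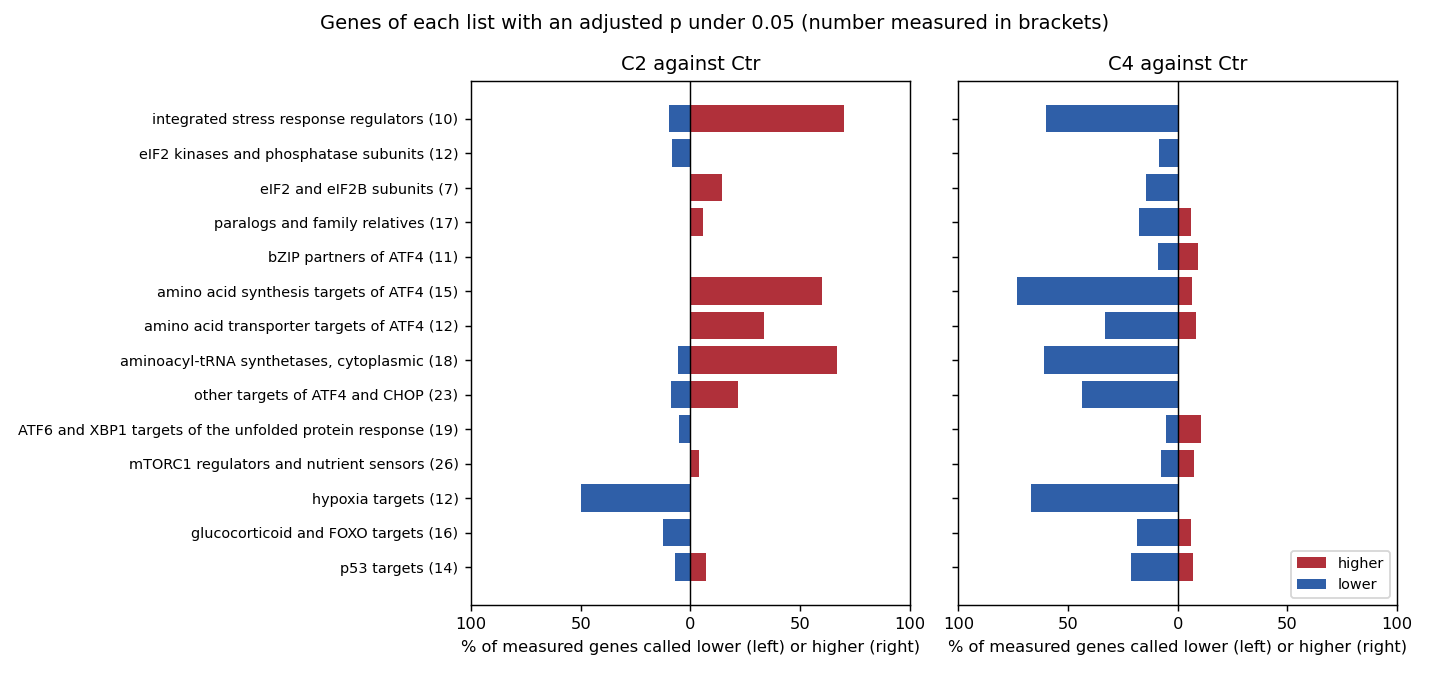
Percentage of the measured genes of each list (vertical axis, number measured in brackets) that limma called lower (bars to the left of 0) or higher (bars to the right), in C2 against Ctr in the left panel and in C4 against Ctr in the right. The regulators, the amino acid synthesis genes and the tRNA synthetases have their long bars on the right in C2 and on the left in C4, and the hypoxia targets on the left in both.

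For members whose 9 values ranged over at least 1, the genes with the most similar profile were sought among 9347 genes with a mean over 4, by the root mean square difference between profiles centred on their own mean over the 9 arrays. Cebpg lay next to Kirrel3 (0.0613), Slc3a2 (0.0678) and Asns (0.0762). The nearest to Atf5 were Slc7a1, Slc7a5 and Cd93, between 0.143 and 0.146, and the nearest to Chac1 were Nupr1 (0.136), Cd93 (0.194) and Slc7a5 (0.196). Ddit3 was closest to Wars (0.0904), the tryptophan tRNA synthetase, and to Slc25a33 (0.0964) and Arl14ep (0.0987). Sesn2 had Atf4 itself as its nearest neighbour (0.11). The nearest to Trib3 were Cd93 (0.283), Timp1 (0.295) and Chac1 (0.298), and those to Cebpb (Znrf2, Acsl5 and Piezo1) lay between 0.149 and 0.162. The measure is not scaled by the range of a member (2.999 for Trib3, 1.435 for Cebpg), so its size is not comparable between members. Atf4, Atf3 and Ddit4 ranged over less than 1 and were not searched.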

How the data were processed

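RNA of aOBSC neurospheres was measured on 9 arrays, 3 per condition. The series' own design text calls them biological replicates, and whether they came from separate animals is not given. The values are the authors' deposited log2 expression values, background-corrected, quantile-normalised and summarised with GCRMA (its version is not given in the sources used here). They were not normalised again. Of 45101 probe sets, 64 controls were left out. Of the rest, 34945 had 1 gene symbol in the platform annotation, 932 several and 9160 none. In limma 3.58.1 (R 4.3.3), 1 mean per condition was fitted over all 9 arrays with a variance prior following intensity (6 residual and 0.574 prior degrees of freedom), and p-values were adjusted over 45037 probe sets. The procedure was tested on simulated data. Depth does not apply to arrays, and their number limits the precision. Named were all 10 members, by rule up to 3 nearest profiles, and up to 3 genes per list with the smallest p in C4. Further list genes (such as Cth, Aars1, Qars1, Gpt2, Slc6a9, Eif2ak4, Ppp1r15a, Sgk1 and Hspa5) were picked after their values were seen. Members and lists were chosen with earlier results of these data known. List genes not measured by a probe set with 1 symbol were not analysed here. Alternatives covered the prior, dim probe sets, scaling, replicate block, conditions fitted, probe sets per gene, stricter thresholds and leaving out each array.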

Additional observations from a re-analysis of the deposited data

Results flagged for a closer look

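For 4 genes the 2 longer intervals differed from the same Ctr arrays in opposite directions, each with a call by limma. A call of the difference C4 minus C2 was a condition for listing a gene here. With opposite called differences from Ctr, this difference is larger in size than either, so its call is no separate support. It was −1.97 (−1.965 before rounding) for Atf5, −1.17 (−1.166) for Ddit3, −1.40 (−1.398) for Cebpg and −2.26 (−2.257) for Chac1. In each of the 4, all 3 C2 arrays stood above and all 3 C4 arrays below the 3 Ctr arrays. The calls against Ctr were not all stable: in C2 those of Atf5 and Chac1 were lost with the robust prior (adjusted p = 0.0663 and 0.0717), and in C4 that of Ddit3 was lost with it (adjusted p = 0.0689), while Cebpg kept both of its calls there.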

How the results depend on the processing

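In C4 against C2 the lower level of 9 members was found in every fit that left out 1 array, and all members kept their direction in every setting tried there. The calls of C2 against Ctr were the least stable. With a robust variance prior, 2 members (Ddit3 and Cebpg) stayed higher in C2 and 0 lower, and over all probe sets 1386 were called in C4, 45 in C2 and 1178 in C4 against C2. A stricter rule (difference of at least 1, adjusted p under 0.01) left 2 members lower in C4, 0 higher and 0 lower in C2, and 5 lower in C4 against C2, of 230, 11 and 224 probe sets in all. Fitting only the arrays of the 2 conditions compared gave 0 members lower in C2 and 1618, 371 and 1404 probe sets. Leaving out dim probe sets gave 4697, 1825 and 3908, and scaling to the 75th percentile, which moved the median of all probe sets by under 0.1, gave 1163 in C2.

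With the replicate number as a block, 3 members were higher in C2, without Atf5 (adjusted p = 0.0527) and Chac1 (adjusted p = 0.0689), and 237 probe sets were called there. Whether the numbers pair the samples is not given. Correlations of the deviations of same-numbered arrays ran over −0.0426 to 0.126 in 9 pairs. Those of differently numbered arrays ran over −0.1217 to 0.0917, and correlations this weak cannot decide on a pairing. Leaving out 1 array at a time gave 5 to 7 members higher and 0 to 1 lower in C2 (0 without Ctr replicate 2 or C2 replicate 2), with 323 to 584 probe sets in C2, 1818 to 2585 in C4 and 1485 to 2091 in C4 against C2. Atf4 and Sesn2 lost their calls in C2 without any 1 of the Ctr or C2 arrays (adjusted p of 0.0559 to 0.0748 and 0.0666 to 0.14). The small difference of Cebpb in C2 changed sign, to −0.0181 without Ctr replicate 3 and −0.0288 without C2 replicate 1, in a range of −0.0288 to 0.162. The causes of these changes were not tested, other than that fewer arrays or probe sets enter some fits. In C4 against C2, Ddit4 lost its call with the robust prior (adjusted p = 0.0983) and Sesn2 in the fit of only 2 conditions (adjusted p = 0.0593). In C4, Ddit3 lost its call under the robust prior, the block and the fit of only 2 conditions, while Atf4 and Cebpb gained one with dim probe sets left out and after scaling, as Trib3 did in C2. Atf3 gained one in C4 with dim probe sets left out (limma, adjusted p = 0.0436, 9 members then being lower). It also gained one in the fit of means over the probe sets of each gene (adjusted p = 0.0365). Atf3 has 1 probe set, so nothing was averaged for it, and its difference stayed at −0.23. With 3 arrays per condition, small differences may go uncalled.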

Other observations

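Among 26 regulators of mTORC1, the kinase that Sesn2 and Ddit4 restrain, 1 gene rose in C2 and 2 rose and 2 fell in C4. Rragc, a Rag GTPase that brings mTORC1 to the lysosome, was higher at both intervals, by 0.25 in C2 (limma, adjusted p = 0.00904) and by 0.33 in C4 (adjusted p = 8.49e-04). Its GTPase-activating partners Flcn and Fnip1 fell in C4, by 0.39 (adjusted p = 0.00927) and 0.49 (adjusted p = 0.0479), and Mlst8, an mTOR-binding subunit, rose there by 0.87 (adjusted p = 0.027). Among the p53 targets, Btg2, an antiproliferative gene, rose in C4 by 0.84 (adjusted p = 0.00263) and had −0.47 in C2 (adjusted p = 0.0534), while Cdkn1a, the cell cycle inhibitor p21, fell in C4 by 0.45 (adjusted p = 0.00854). Microglial markers were close to the floor apart from Cd68, and the summed linear level of the 9 genes ranged over 80.1 to 86.2 in C4, against 250.2 to 301.4 in Ctr. None of the 8 endothelial and pericyte markers had a mean over 4.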
